A study of Rattus norvegicus with 30 samples.

Results

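GABA-A receptor subunits were analyzed in brain RNA of 30 rats. The genes were Gabra2, Gabra3, Gabra4, Gabra5, Gabrb1, Gabrb2 and Gabrd, taken from the table by their symbols. All 7 were found among 17134 genes, each with a single Ensembl identifier. Another 6 subunit genes (Gabra6, Gabrg1, Gabrg3, Gabrq, Gabrr1 and Gabrr2) were used for comparison.

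GABA-A receptors are chloride channels opened by GABA, the main inhibitory transmitter of the brain. Each channel is a ring of subunits, usually α and β subunits with a γ or δ subunit. Receptors with a γ subunit sit mostly at synapses and carry fast, brief inhibition. Receptors with the δ subunit, or with α5, sit mostly outside synapses and respond to low, steady GABA. The α4 and δ subunits pair in the forebrain, and α6 and δ pair in granule cells of the cerebellum, where Gabra6 is a defining gene.

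The rats were 10 WT, 10 HIP and 10 AKO, all male and on normal diet. They were Sprague Dawley rats by the series description. In HIP rats the β-cells of the pancreas make human amylin beside the rat's own, and AKO rats lack amylin. The study's methods place HIP and WT rats in the second year of life. They give that age for a smaller number of AKO rats and a younger age for AKO rats of another experiment, and do not say which holds for the AKO rats sequenced. The human gene acts in the pancreas, so the brain was studied as exposed to the hormone in blood. Each library came from tissue labelled frontal cortex, while the study's text also names cerebral cortex and hippocampus. None of these names says which layers or neighbouring regions were taken. In bulk tissue, fewer cells that express a subunit and less RNA per cell cannot be told apart.

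Values were the normalized counts deposited by the authors, a scale that allows a gene to be compared between rats but not one gene with another. The estimated number of reads on genes was 12.9 to 21.2 M (mega) in WT, 13.7 to 16.7 M in HIP and 12.9 to 23.6 M in AKO rats, with medians of 19.1, 15.7 and 16.1 M. In 2 libraries Gabra6 was above 100 normalized counts, WT rat 10RT43 (17979) and HIP rat 12RT23 (1564), and in the other 28 it was at most 16.5. The mean log2 value of 11 cerebellar genes (of 12 listed) was 12.0 in 10RT43 and 9.02 in 12RT23, against at most 5.24 elsewhere. Rat 10RT43 also lacked the cortical pattern. Its mean over 9 neocortex genes (of 10 listed) was 6.76, against 9.79 to 10.8 in all other libraries, and it had 16.7 normalized counts of Tbr1, which marks cortical projection neurons. HIP rat 10RT46 carried genes of the pineal gland (mean 10.1 over 7 genes, at most 2.47 elsewhere) and of the choroid plexus (9.02 over 8 genes), and AKO rat 7AKO19 carried the latter as well (6.94), with at most 4.26 elsewhere. The group comparisons were repeated without these libraries, and the relations between genes below leave out 10RT43 and 12RT23.

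The promoters of the subunits were read first, because some of these genes varied together and others in opposite directions. RefSeq windows of 300 bases (250 before and 50 after the start, rat assembly GRCr8) were found for 6 of the 7 genes, and Gabra2 was not matched. Gabrb1 and Gabrb2, which encode the β1 and β2 subunits, are shown because their windows held the same 3 exact runs of 10 bases or more in the same order. The windows lie at chr14:36902844-36903143 on the minus strand and chr10:27439543-27439842 on the plus strand, and capitals mark the shared runs.
Gabrb1: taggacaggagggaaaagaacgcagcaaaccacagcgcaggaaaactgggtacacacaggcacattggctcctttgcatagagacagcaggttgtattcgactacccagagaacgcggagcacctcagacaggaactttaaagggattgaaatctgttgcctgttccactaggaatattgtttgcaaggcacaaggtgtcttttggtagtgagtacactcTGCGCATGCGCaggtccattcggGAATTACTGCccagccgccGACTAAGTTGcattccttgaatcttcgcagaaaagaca
Gabrb2: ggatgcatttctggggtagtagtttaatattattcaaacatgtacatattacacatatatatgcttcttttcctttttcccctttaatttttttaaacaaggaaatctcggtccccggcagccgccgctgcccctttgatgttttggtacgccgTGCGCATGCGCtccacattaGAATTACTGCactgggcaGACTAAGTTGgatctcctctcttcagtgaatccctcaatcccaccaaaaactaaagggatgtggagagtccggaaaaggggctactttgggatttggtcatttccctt
The longest shared run, TGCGCATGCGC, holds the palindromic core known from sites of nuclear respiratory factor 1. It was found on either strand in 200 of 33469 promoter windows (0.598%). The run GAATTACTGC was in 13 windows and GACTAAGTTG in 5. All 3 runs stood together in 2 windows, those of Gabrb1 and Gabrb2. The runs were 12 and 9 bases apart in Gabrb1, and 9 and 8 bases apart in Gabrb2. Their levels had a Spearman's rho of 0.60 over the 28 libraries with little Gabra6. This was not the highest for either gene, as Gabrb1 had 0.73 with Gabrg1 and Gabrb2 had 0.90 with Gabra4.

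Gabra4, Gabra5 and Gabrd had promoters of another kind, rich in CG dinucleotides. They are shown because Gabra4 was the subunit whose level most resembled that of Gabrb2, and because Gabra5 and Gabrd varied in opposite directions. The windows lie at chr14:36944497-36944796 (plus strand), chr1:117516557-117516856 (minus strand) and chr5:171252660-171252959 (minus strand), and capitals mark each CG.
Gabra4: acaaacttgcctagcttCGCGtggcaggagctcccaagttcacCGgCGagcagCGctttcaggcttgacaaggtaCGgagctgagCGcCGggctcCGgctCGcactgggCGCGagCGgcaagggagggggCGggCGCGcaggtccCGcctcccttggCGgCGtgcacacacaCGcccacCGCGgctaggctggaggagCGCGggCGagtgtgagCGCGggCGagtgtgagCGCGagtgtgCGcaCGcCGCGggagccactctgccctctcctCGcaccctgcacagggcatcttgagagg
Gabra5: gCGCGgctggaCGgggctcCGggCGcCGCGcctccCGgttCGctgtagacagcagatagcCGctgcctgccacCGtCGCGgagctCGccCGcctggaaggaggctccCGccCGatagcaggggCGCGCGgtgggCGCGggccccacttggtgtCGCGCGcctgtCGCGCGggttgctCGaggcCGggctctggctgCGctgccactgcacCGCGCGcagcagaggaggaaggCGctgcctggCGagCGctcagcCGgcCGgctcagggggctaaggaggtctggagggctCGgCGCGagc
Gabrd: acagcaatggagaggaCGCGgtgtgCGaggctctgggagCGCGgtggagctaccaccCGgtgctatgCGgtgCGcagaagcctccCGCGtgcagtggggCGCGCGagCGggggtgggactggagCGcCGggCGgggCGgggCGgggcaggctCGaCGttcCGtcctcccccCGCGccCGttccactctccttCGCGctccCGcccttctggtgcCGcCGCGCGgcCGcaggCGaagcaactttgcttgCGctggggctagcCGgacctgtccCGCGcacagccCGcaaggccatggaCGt
These windows held 35, 42 and 40 CG, more than 93.9%, 97.6% and 96.8% of all promoter windows. Gabrb1 held 11, Gabrb2 held 9 and Gabra3 held 0. Genes with opposite levels (Gabra5 and Gabrd) thus had windows of like composition, and the pair with the most similar levels (Gabra4 and Gabrb2) had windows of different composition.

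The α subunits Gabra2 and Gabra3 were present in every library. Gabra2, which encodes a synaptic α subunit also found at the axon initial segment, had a lowest, median and highest value of 124, 1105 and 1335 normalized counts in WT rats, 582, 1247 and 1473 in HIP rats, and 458, 1010.4 and 1621 in AKO rats. The 3 ranges overlapped, and the medians ran from HIP to WT to AKO. The next lowest rats had 861, 849 and 673. HIP vs. WT gave a log2 fold change of 0.33 (SE 0.32), AKO vs. WT gave 0.14 (SE 0.34) and HIP vs. AKO gave 0.19 (SE 0.19). None had an unadjusted p under 0.05, the smallest being 0.311 (limma). Without 10RT43, HIP vs. WT was 0.02 and AKO vs. WT turned to -0.17.

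Gabra3, which encodes an α subunit of synapses in deep cortical layers and in monoamine nuclei, varied little apart from single rats. Its lowest, median and highest values were 130.3, 755 and 841 in WT, 443, 805 and 906 in HIP, and 356, 701 and 786 in AKO rats. Without the lowest rat, HIP values lay between 771 and 906 and WT values between 589 and 841. HIP vs. WT gave a log2 fold change of 0.32 (SE 0.25), AKO vs. WT gave 0.06 (SE 0.26) and HIP vs. AKO gave 0.25 (SE 0.13, p = 0.0701, adjusted p = 0.433, limma). In the last comparison 9 of 10 HIP rats exceeded the AKO median, and the 95% interval ran from -0.02 to 0.53. Without 10RT43, HIP vs. WT was 0.07 and AKO vs. WT turned to -0.18. Without 6KAH98, HIP vs. AKO was 0.16 (p = 0.147, adjusted p = 0.584).

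Gabra4, the α subunit that joins δ in forebrain receptors outside synapses, was the one of the 7 with an unadjusted p under 0.05. Its lowest, median and highest values were 150.7, 939 and 1163 in WT, 486, 1029 and 1162 in HIP, and 398, 758 and 916 in AKO rats. Most HIP rats were above most AKO rats, although the ranges overlapped. HIP vs. AKO gave a log2 fold change of 0.33 (SE 0.15, 95% interval 0.02 to 0.64, p = 0.0357), with 951 ± 199 against 753 ± 152.99 normalized counts (SD, n = 10 per group). After adjustment over all genes it did not pass (adjusted p = 0.356, limma). The unadjusted p was above 0.05 when any of 9 of the 20 rats was left out, among them 6KAH98 (0.24, p = 0.0731) and 12RT23 (0.32, p = 0.0561), and in one fit of all 30 rats (p = 0.185). Of the HIP rats, 9 of 10 exceeded the AKO median. AKO vs. WT gave -0.07 (SE 0.27) although 0 of 10 AKO rats exceeded the WT median, and 10RT43 had the lowest value of all 30 rats. Without 10RT43 it was -0.33 (p = 0.0261, adjusted p = 0.421).

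Gabra5, the α subunit of steady inhibition in hippocampus and olfactory bulb, had values up to 186 times the lowest in WT rats. Its lowest, median and highest values were 8.37, 915 and 1558 in WT, 738, 1164 and 1582 in HIP, and 703, 1088 and 1515 in AKO rats. The lowest WT value is about 7 reads in 10RT43, and the next WT rat had 584. The log2 fold change was 0.87 for HIP vs. WT (SE 0.64) and 0.83 for AKO vs. WT (SE 0.64), and both comparisons share the WT rats. Without 10RT43 these values were 0.20 and 0.16. HIP vs. AKO gave 0.04 (SE 0.15, 95% interval -0.27 to 0.36), the narrowest result for this gene.

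The β subunits carry, with α, the site that binds GABA. Gabrb1 was the subunit with the fewest reads of the 7. Its lowest, median and highest values were 52.6, 104 and 144.5 in WT, 61.1, 92.6 and 216 in HIP, and 35.2, 110.0 and 138.1 in AKO rats. The groups covered one another, with medians in the order AKO, WT, HIP. HIP vs. WT gave a log2 fold change of 0.15 (SE 0.24), AKO vs. WT gave 0.00 (SE 0.24) and HIP vs. AKO gave 0.14 (SE 0.25). The highest HIP value was that of 12RT23, without which HIP vs. WT and HIP vs. AKO were both 0.03.

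Gabrb2, which encodes the β2 subunit found in many cortical receptors, had lowest, median and highest values of 540.2, 1056 and 1755 in WT, 299, 1193 and 1711 in HIP, and 123, 699 and 1255 in AKO rats. AKO rats were mostly on the low side, but every pair of groups overlapped. The mean was 766 ± 335 in AKO, 1097 ± 354 in WT and 1141 ± 420.5 in HIP rats (SD, n = 10 per group). AKO vs. WT gave a log2 fold change of -0.65 (SE 0.31, 95% interval -1.30 to 0.00, p = 0.0512, adjusted p = 0.536, limma), and 3 of 10 AKO rats exceeded the WT median. HIP vs. AKO gave 0.64 (SE 0.34, p = 0.0733, adjusted p = 0.441). HIP vs. WT gave 0.00 (SE 0.26, 95% interval -0.54 to 0.54). Leaving out AKO rat 6KAH98 moved the 2 differences from AKO to -0.38 and 0.37.

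Gabrd, which encodes the δ subunit, had lowest, median and highest values of 1001, 1694 and 5845 in WT, 1008, 1456 and 1994 in HIP, and 752, 1195 and 2085 in AKO rats. Its highest WT value was that of 10RT43, and the next WT rat had 2299. The log2 fold change was -0.35 for HIP vs. WT (SE 0.24, p = 0.160) and -0.51 for AKO vs. WT (SE 0.25, 95% interval -1.03 to 0.00, p = 0.0504, adjusted p = 0.535, limma). Without 10RT43 these values were -0.16 and -0.32. HIP vs. AKO gave 0.16 (SE 0.17). The plot of subunits by rat shows these values.

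**Figure D1:**
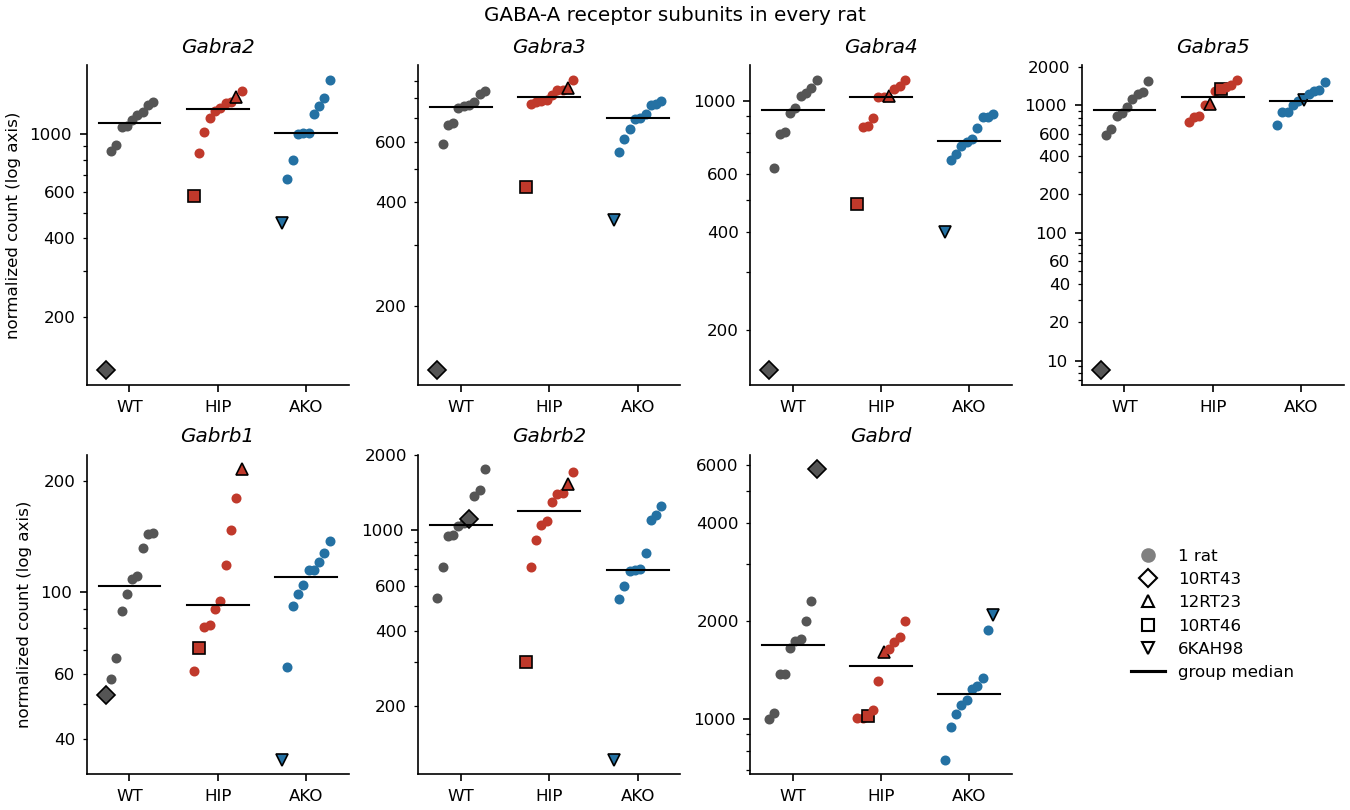
Normalized counts (log axis) of the 7 subunit genes in every rat, 10 per group, ordered by value within a group; bars are group medians and outlined symbols mark 4 rats. WT rat 10RT43 is lowest in Gabra2, Gabra3, Gabra4 and Gabra5 (8.37 in Gabra5) and highest in Gabrd (5845), and HIP rat 10RT46 and AKO rat 6KAH98 are lowest of their groups in Gabra2, Gabra3, Gabra4 and Gabrb2.

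Across the 7 subunits, 0 passed an adjusted p of 0.05 in any comparison (limma, Benjamini-Hochberg over all genes tested). For HIP vs. WT, 0% of 17085 genes passed, and 0 of 7 subunits had an unadjusted p under 0.05, against 2.57% of all genes. For AKO vs. WT, 0.0997% of 17058 genes passed, and 0 of 7 subunits had an unadjusted p under 0.05, against 9.34% of all genes. For HIP vs. AKO, 0.17% of 17092 genes passed, and 1 of 7 subunits (Gabra4) had an unadjusted p under 0.05, against 12.7% of all genes. The median log2 fold change of the 7 was 0.27, 0.00 and 0.19 in these comparisons, and that of all genes tested was 0.00 in each. All 7 values were above 0 in HIP vs. AKO, while 5 were in HIP vs. WT and 4 in AKO vs. WT. Of all genes tested, 8717 of 17092, 8645 of 17085 and 8586 of 17058 were above 0 in these comparisons. Without the libraries with Gabra6 above 100, 2 of 7 were above 0 in HIP vs. WT (median -0.01), 1 of 7 in AKO vs. WT (median -0.18) and 7 of 7 in HIP vs. AKO (median 0.16). With weights that give less influence to libraries far from their group, Gabra4 (0.35) and Gabrb2 (0.69) passed for HIP vs. AKO (adjusted p = 0.0298 and 0.0448), where 6.69% of all genes passed. None of the 7 passed with these weights for AKO vs. WT, where 5.02% of all genes did. For HIP vs. AKO without 10RT46, Gabra3, Gabra4 and Gabrb2 had unadjusted p-values of 0.00579, 0.00177 and 0.0117, against 17.6% of all genes with one under 0.05, and none of the 7 passed after adjustment, against 0.411% of all genes. Without 6KAH98, the same 3 genes had unadjusted p-values of 0.147, 0.0731 and 0.155. Without 10RT43, 12RT23, 10RT46 and 7AKO19, these p-values were 0.00749, 0.00352 and 0.0314 (13.7% of all genes under 0.05), and Gabra3 had 0.15 in HIP vs. WT (p = 0.0319, adjusted p = 0.9997, with 3.78% of all genes under 0.05).

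**Figure D2:**
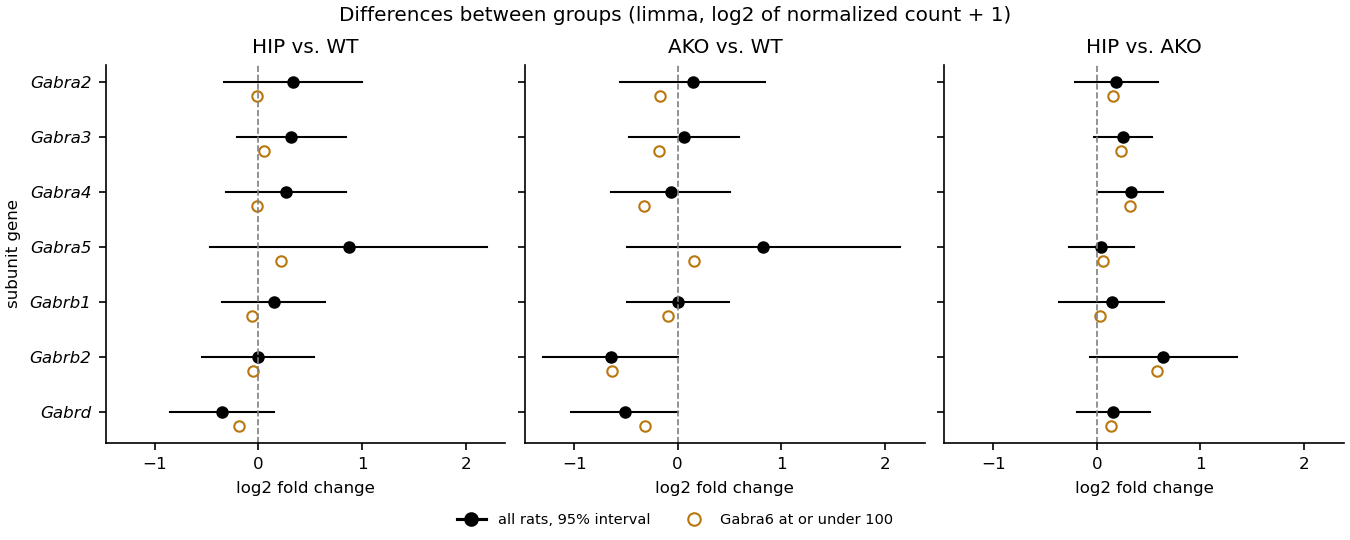
Log2 fold changes of the 7 subunit genes in 3 comparisons (limma on log2 of normalized count + 1), with filled circles and 95% intervals for all 20 rats compared and open circles without the libraries with Gabra6 above 100. Without these libraries the circles of Gabra2 and Gabra4 lie near 0 for HIP vs. WT (-0.01 each), and that of Gabra5 drops from 0.87 to 0.21.

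The libraries with Gabra6 above 100 were then described one at a time, with no test. In 10RT43, all 4 α subunits of the set were far below the other WT rats. Gabra5 was 8.37 normalized counts against a median of 964 in the other 9 WT rats, 115-fold lower, from 7 reads with a counting interval of 2.81 to 14.4. Gabra2 was 9.12-fold lower (124 against 1134), Gabra4 was 6.35-fold lower (150.7 against 956) and Gabra3 was 5.83-fold lower (130.3 against 759.8). Each of these lay below the other 9 WT rats. Gabrb1 was 2.07-fold lower (52.6 against 109), just under the lowest other WT rat at 58.2.

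The other 2 subunits did not share this direction in 10RT43. Gabrb2 was 1113 normalized counts against a median of 1045, inside the range of 540.2 to 1755. Gabrd was 5845 against a median of 1652, 3.54-fold of it and above the highest other WT rat at 2299. Among the other subunits, Gabrg3 (8.37 against a median of 67.8) and Gabrg1 (280 against 492) were below every other WT rat. So were Gabrq (0 against 11.0) and Gabrr2 (0 against 17.1), both at low counts, while Gabrr1 was inside the range. Gabrb2, which held, and Gabrd, which was high, are known with Gabra6 from receptors of cerebellar granule cells. Gabra6 is the gene by which this library was chosen, so its high value here is not a result. The part of the cerebellar genes of this library, given above, in the subunit levels was not tested. For scale, among genes averaging 10 or more in WT rats, 0.36% had a lower log2 difference in 10RT43 than Gabra5, and 97.3% had a lower one than Gabrd.

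HIP rat 12RT23, with 1564 normalized counts of Gabra6, did not show this pattern. Gabra2 (1389), Gabra3 (857), Gabra4 (1040.4) and Gabra5 (1030.0) were inside the ranges of the other 9 HIP rats, as were Gabrb2 (1530.5) and Gabrd (1606). Gabrb1 was 216, 2.40-fold of the median of the others (90.1) and above their highest value of 180.1. The neocortex list of this rat was 10.6, near the HIP median of 10.5.

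Rats 10RT46 and 6KAH98 had little Gabra6 and stood apart in other subunits. In 10RT46, Gabrb2 was 299 normalized counts against a median of 1298 in the other HIP rats, 4.35-fold lower, and Gabra2 (582), Gabra3 (443) and Gabra4 (486) were 2.18-, 1.85- and 2.12-fold lower. In 6KAH98, Gabrb2 was 123 against a median of 703 in the other AKO rats, 5.73-fold lower, and Gabrb1 (35.2) was 3.27-fold lower. Gabra2 (458), Gabra3 (356) and Gabra4 (398) of 6KAH98 were 2.21-, 1.98- and 1.92-fold lower. Both rats kept Gabra5, with 1328 and 1092. Gabrd differed between them, with 1020.1 in 10RT46, inside the HIP range, and 2085 in 6KAH98, the highest AKO value. The mean log2 value of 75 ribosomal protein genes, a list chosen after the values were seen, was 10.3 in 6KAH98 and 9.96 in 10RT46, against 9.41 to 9.92 in the other libraries. The part of these genes, or of the pineal and choroid plexus genes of 10RT46, in the low subunits was not tested.

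**Figure D3:**
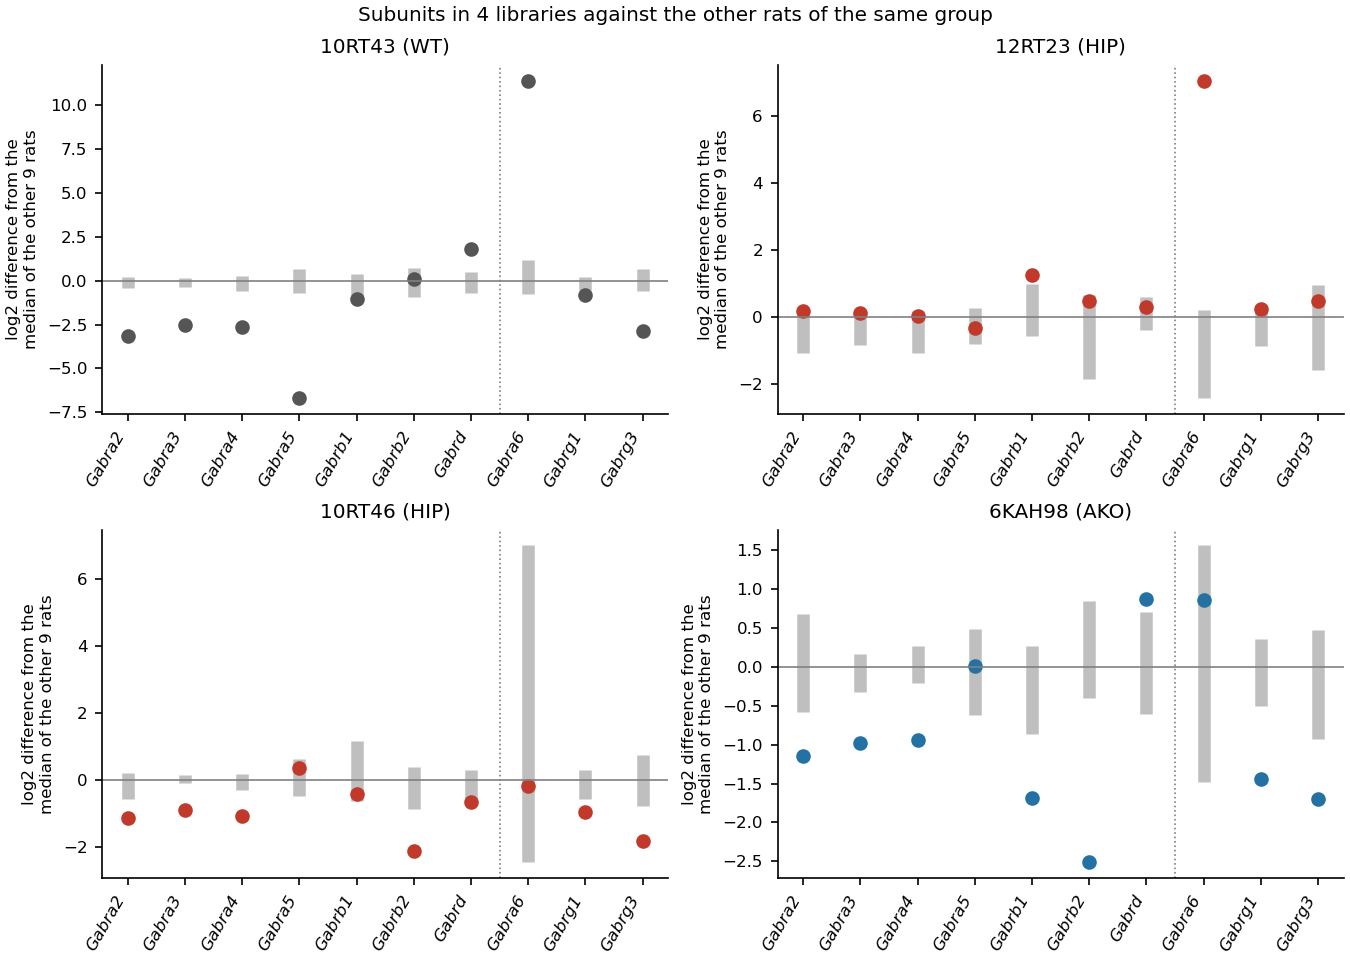
Log2 difference of 10 subunit genes from the median of the other 9 rats of the group, in 4 libraries; grey bars span those 9 rats and the dotted line separates the 7 subunits from others. In 10RT43 Gabra5 lies at -6.69 and Gabrd at 1.82, in 12RT23 Gabrb1 lies at 1.25, and in 10RT46 and 6KAH98 Gabrb2 lies at -2.12 and -2.51.

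The levels of Gabra5 and Gabrd differed with the regional make-up of the libraries. The mean log2 value of 7 olfactory bulb genes (of 8 listed) fell in 2 clusters, 7.38 to 9.89 in 10 libraries and 4.02 to 5.96 in 18, leaving out those with Gabra6 above 100. Gabra5 was 1234 to 1558 in the 3 WT rats with high olfactory bulb genes and 584 to 1121 in the 6 others. In HIP rats it was 1393 to 1582 in the 3 rats with high olfactory bulb genes and 738 to 1328 in the 6 others. In AKO rats, 878 to 1515 in 4 rats and 703 to 1315 in 6 rats overlapped.

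Gabrd ran the other way. It was 1001 to 1377 in the WT rats with high olfactory bulb genes and 1377 to 2299 in the others, ranges that meet at their ends. In HIP rats it was 1008 to 1069.7 and 1020.1 to 1994, and in AKO rats 752 to 1343 and 1036 to 2085. Gabra5 and Gabrd were not alone in this. Gabra4 was 627 to 805 and 921 to 1163 in WT rats, but its ranges overlapped in HIP and AKO rats. Gabrg3 was 86.2 to 136.8 and 22.3 to 81.7 in HIP rats, and overlapped in WT and AKO rats. The clusters were set by the olfactory bulb genes and not by the study, so no test of the split and no correlation with that list is given. The share of these libraries was 3 of 9 in WT, 3 of 9 in HIP and 4 of 10 in AKO rats.

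Over the 28 libraries, the neocortex list ran from 9.79 to 10.8 without clusters, but it largely followed the olfactory bulb split. In WT rats it was 9.995 to 10.28 in libraries with high olfactory bulb genes and 10.48 to 10.78 in the others. In HIP rats it was 10.19 to 10.43 and 10.49 to 10.67, apart from 10RT46 at 10.01, and in AKO rats the ranges overlapped. The relations of the neocortex genes below were not separated from that split. Gabrd was higher in libraries with more of these genes (Pearson's r = 0.74, p = 2e-05; Spearman's rho = 0.73, p = 3e-05, permutation test, two-sided), and r was 0.71 without the 2 libraries farthest from the median of the list. Within groups rho was 0.88 in WT, 0.80 in HIP and 0.33 in AKO rats. Gabra4 was likewise higher (r = 0.63, p = 0.00026; rho = 0.75, p = 2e-05, permutation test), with r = 0.76 without the 2 farthest, and rho of 0.88, 0.70 and 0.10 within groups. For both genes rho was nearest to 0 among AKO rats. The medians of the neocortex list were 10.6 in WT, 10.5 in HIP and 10.3 in AKO rats, and its part in the lower Gabra4 and Gabrd of AKO rats was not tested.

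Gabrb1 followed 6 genes of astrocytes, cells known to carry some GABA-A receptors (r = 0.62, p = 0.0006; rho = 0.71, p = 0.0001, permutation test). Without the 2 farthest libraries r was 0.73, and rho was 0.78, 0.70 and 0.685 within WT, HIP and AKO rats. Gabrb2 ran opposite to the ribosomal protein genes (r = -0.91, p = 1e-05, the smallest p that 100000 resamples can give; rho = -0.81, p = 2e-05), and r was -0.795 without the 2 farthest libraries, which include 6KAH98. Within groups rho was -0.92 in WT, -0.30 in HIP and -0.78 in AKO rats. The ribosomal list was chosen after the values were seen, so its p-values only describe these libraries. They are included in the count of adjusted p-values that follows. That count also includes Gabra4, Gabra5 and Gabrd with the olfactory bulb list, whose correlations are not given for the reason above. In all, 98 relations (7 subunits with 12 marker lists, the ribosomal protein genes and the estimated reads) were computed, and 23 had an adjusted p under 0.05 (Benjamini-Hochberg, rho). Those given so far had at most 0.00098. Others were Gabrd with 6 hippocampal genes of 10 listed (r = -0.72, p = 2e-05; rho = -0.77, p = 2e-05, permutation test; r = -0.71 without the 2 farthest) and with the choroid plexus genes (r = -0.51, p = 0.00153; rho = -0.77, p = 1e-05, permutation test; r = -0.79 without the 2 farthest). These relations of Gabrd were likewise not separated from the olfactory bulb split. Gabra4 and Gabra2 also ran opposite to the ribosomal protein genes (r = -0.84 and -0.76, rho = -0.72 and -0.56, r = -0.69 and -0.52 without the 2 farthest, adjusted p = 0.000436 and 0.0132, permutation test). Without 10RT46 and 7AKO19, rho of these 8 relations lay between 0.705 and 0.74 for the 3 above 0 and between -0.78 and -0.57 for the 5 below 0. Gabrb1 was not alone in following the astrocyte genes. Gabra2 did so as well (r = 0.65, rho = 0.58, adjusted p = 0.00784, permutation test), with rho of 0.60, 0.77 and 0.56 within WT, HIP and AKO rats. Gabrd ran opposite to the astrocyte genes (rho = -0.54, adjusted p = 0.0182, permutation test). It also opposed the cerebellar genes (rho = -0.76, adjusted p = 0.000327, permutation test). Gabra5 ran opposite to the neocortex genes (rho = -0.64) and with the cerebellar (0.62) and choroid plexus genes (0.65). These had an adjusted p of at most 0.00483 (permutation test), and rho of -0.115, 0.0182 and 0.321 in AKO rats. Gabra4 opposed the choroid plexus genes (rho = -0.66, adjusted p = 0.0016, permutation test). The relations of Gabra4, Gabra5 and Gabrd with regional lists were not separated from the olfactory bulb split. Over the 28 libraries together, no subunit had a rho above 0.22 in size with the estimated reads. Within groups the largest in size were 0.72 for Gabra2 in AKO, -0.58 for Gabra3 in HIP and 0.35 for Gabra5 in WT rats.

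**Figure D4:**
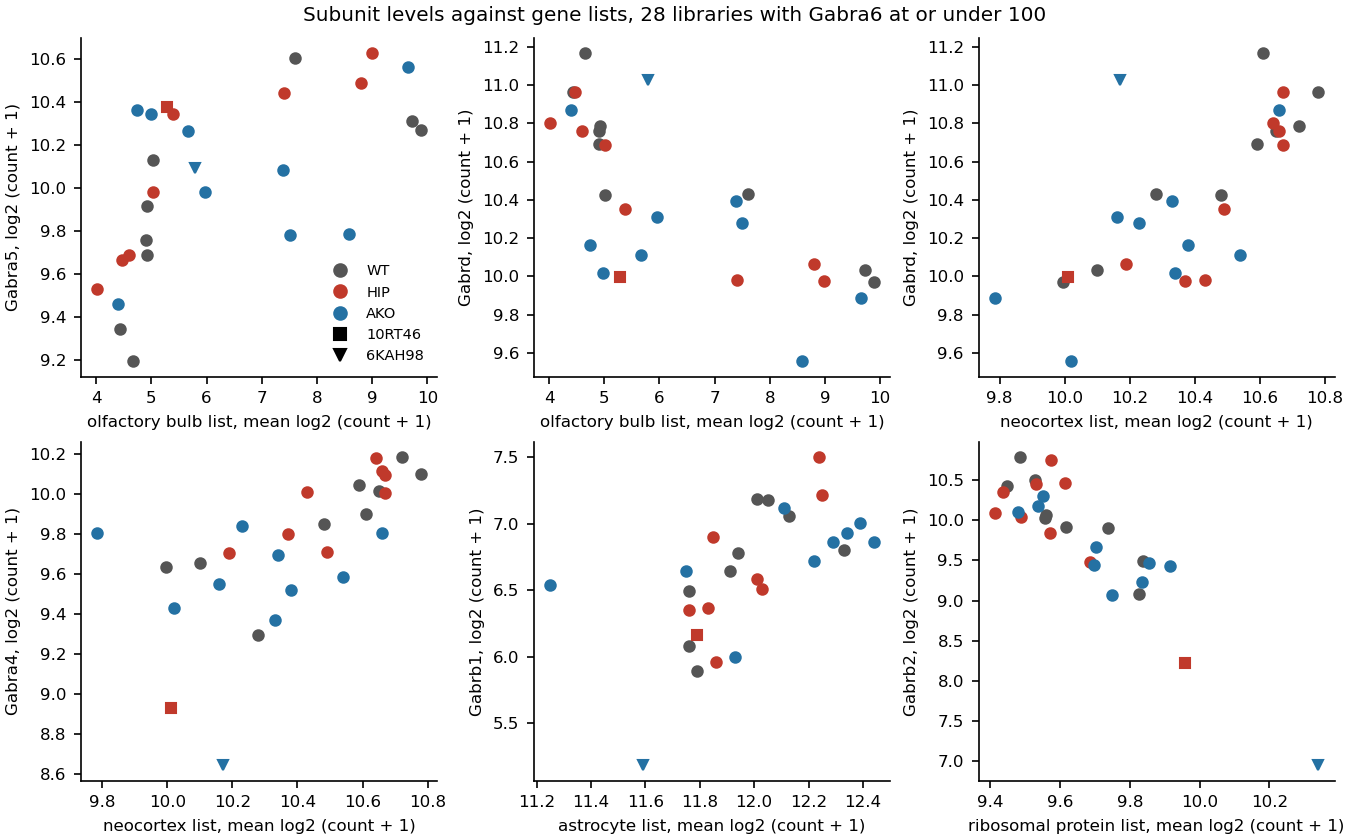
Log2 levels of Gabra5, Gabrd, Gabra4, Gabrb1 and Gabrb2 against the mean log2 value of gene lists, 1 point per library (9 WT, 9 HIP and 10 AKO). At olfactory bulb values above 7, Gabra5 is high in the WT and HIP rats (1234 to 1582 normalized counts) but not in all AKO rats (878 to 1515), and Gabrd is 752 to 1377, Gabrd and Gabra4 run up with the neocortex list, and 6KAH98 and 10RT46 hold the lowest Gabrb2 and the highest ribosomal protein values.

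Likeness between subunits was measured by Spearman's rho over the same 28 libraries, as a description without a test, since all genes of a library share its depth, normalization and tissue make-up. Among the 7, Gabra4 and Gabrb2 were most alike (0.90), with 0.90 in WT, 0.92 in HIP and 0.78 in AKO rats. Gabra2 came next with Gabrb2 (0.76), Gabrb1 (0.70) and Gabra4 (0.69). Gabra5 and Gabrd were most unlike (-0.73), with -0.87, -0.93 and -0.41 within groups. Without 10RT46 and 7AKO19 these were 0.895 for Gabra4 with Gabrb2 and -0.73 for Gabra5 with Gabrd. Gabra3 had its closest member in Gabra4 (0.63).

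Genes that neighbour each other were not always those most alike. In RefSeq (GRCr8), Gabrb1, Gabra4, Gabra2 and Gabrg1 follow each other on chromosome 14, with 1 other protein-coding gene (Cox7b2) between Gabra4 and Gabra2. For adjacent subunits of this cluster rho was 0.44 (Gabrb1 with Gabra4), 0.69 (Gabra4 with Gabra2) and 0.66 (Gabra2 with Gabrg1). For subunits farther apart it was 0.73 for Gabrb1 with Gabrg1, 0.70 for Gabrb1 with Gabra2, and 0.26 for Gabra4 with Gabrg1. Gabra4 had 0.90 with Gabrb2, which lies on chromosome 10, more than with any gene of its own cluster. Gabra5 lies next to Gabrg3 on chromosome 1, and had 0.31 with it. Gabrb2 lies next to Gabra6, which was left out of these pairs.

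**Figure D5:**
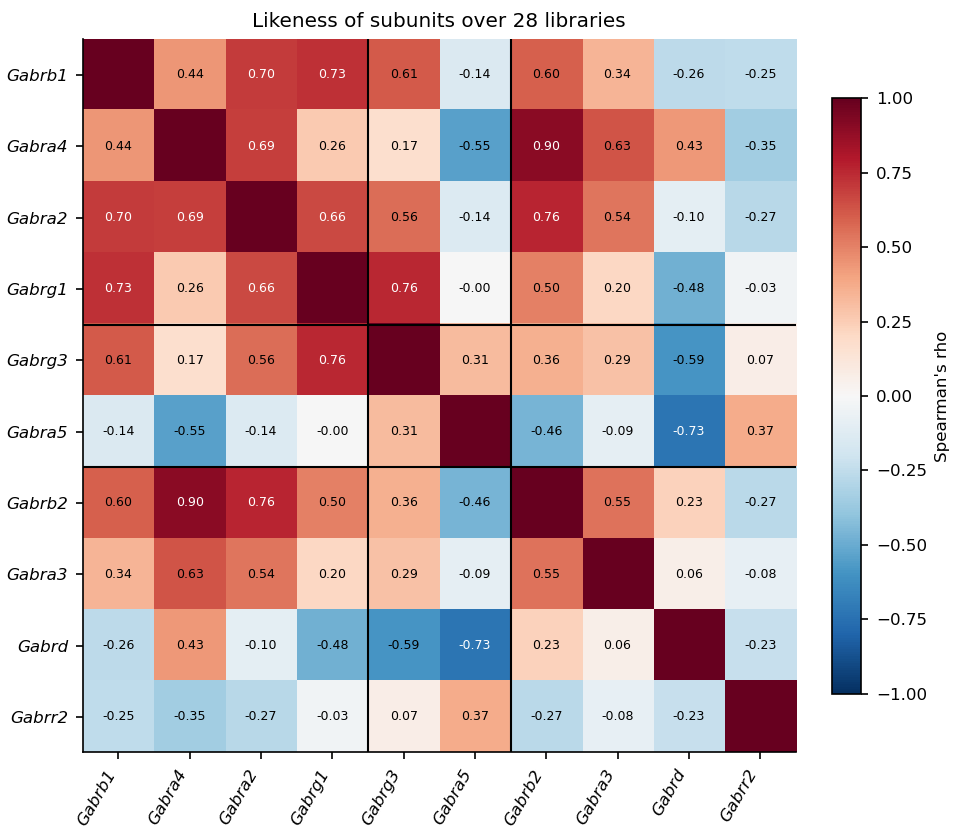
Spearman's rho between 10 subunit genes over 28 libraries, with lines after the neighbouring genes of chromosome 14 and after those of chromosome 1. Gabra4 pairs with Gabrb2 (0.90), and Gabra5 is opposite to Gabrd (-0.73).

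Among 13705 other genes, those most like each subunit were taken as up to 3 with the highest rho over the 28 libraries. For Gabra2 they were G3bp2 (0.91), Eea1 (0.90) and Map3k7 (0.90), and for Gabra3 Atf2 (0.84), B3galnt1 (0.82) and Ube2w (0.81). For Gabra4 they were Mef2c (0.93), a transcription factor of neurons, Slc39a10 (0.93), a zinc transporter, and Lmtk2 (0.92). For Gabra5 they were Tox (0.84), Tmem74 (0.83) and Smap1 (0.81). For Gabrb1 they were Peak1 (0.89), Lrrc7 (0.87), a protein of the postsynaptic density, and Xrn1 (0.86). For Gabrb2 they were Ttll7 (0.97), Rgs17 (0.97), a regulator of G protein signalling, and Kcnma1 (0.96), the large-conductance potassium channel. For Gabrd they were Emx1 (0.94), a transcription factor of the dorsal forebrain, and Coro2b (0.93). Emx1 ran from 193 to 564 normalized counts in these libraries, and is not in the neocortex list used above.

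The other subunits of the family were compared with the same test. Gabrr2, a ρ subunit known from retina, was measured at low counts. Its lowest, median and highest values were 0, 16.9 and 23.8 in WT, 20.3, 28.4 and 37.6 in HIP, and 14.1, 24.8 and 38.9 in AKO rats. The value of 0 was that of 10RT43, and the next WT rat had 11.9. HIP vs. WT gave a log2 fold change of 1.14 (SE 0.41, p = 0.0112, adjusted p = 0.999, limma) and 10 of 10 HIP rats exceeded the WT median, while AKO vs. WT gave 0.90 (p = 0.0432, adjusted p = 0.519). Without the libraries with Gabra6 above 100 these were 0.74 (p = 0.000104, adjusted p = 1) and 0.49 (p = 0.0137, adjusted p = 0.364). Gabra6, Gabrg1, Gabrg3, Gabrq and Gabrr1 had no unadjusted p under 0.05 in any comparison. Gabrr1 was at most 8.72 except for 137.7 in 10RT46.

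The lists of other genes around the receptor gave 0 genes with an adjusted p under 0.05 in all 3 comparisons (limma). Of 8 genes for making, moving and degrading GABA, an unadjusted p under 0.05 was met by 1 in HIP vs. WT, by 1 in AKO vs. WT and by 0 in HIP vs. AKO, against 2.57%, 9.34% and 12.7% of all genes. Slc32a1, the transporter that fills vesicles with GABA, had 1594 normalized counts in HIP, 1706 in AKO and 2065 in WT rats, with log2 fold changes from WT of -0.38 (p = 0.0021) and -0.31 (p = 0.0366). All 8 genes of this list were below 0 for AKO vs. WT, with a median of -0.21, against 8472 of 17058 genes tested. Without the libraries with Gabra6 above 100, Slc32a1 had -0.30 in HIP vs. WT (p = 0.00724) and -0.25 in AKO vs. WT (p = 0.0685).

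Of 23 genes (of 24 listed) for holding and delivering the receptor, an unadjusted p under 0.05 was met by 0 in HIP vs. WT, by 2 in AKO vs. WT and by 2 in HIP vs. AKO, shares near or below those of all genes. Gphn, which encodes the scaffold protein gephyrin, had 990.4 normalized counts in AKO and 1132 in WT rats (-0.20, p = 0.00486). Insyn1, a partner of the inhibitory synapse, had 1989 in AKO, 1646 in WT and 1629 in HIP rats (0.28 for AKO vs. WT, p = 0.00881; -0.29 for HIP vs. AKO, p = 0.00167). Shisa7, an auxiliary protein of the receptor, had 2265 in HIP and 2697 in AKO rats (-0.26, p = 0.00549). Of 5 genes of the GABA-B receptor, Kctd8 had an unadjusted p under 0.05 with 200.4 in AKO, 306 in WT and 295 in HIP rats (-0.64, p = 0.00459; 0.57, p = 0.014). Of 4 chloride transport genes (of 5 listed), 0 had an unadjusted p under 0.05 in any comparison. The median log2 fold change of these 3 lists lay between -0.10 and 0.13 in every comparison, against 0.00 for all genes tested.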

How the data were processed

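RNA of 30 rats (10 WT, 10 HIP, 10 AKO) was sequenced, and each rat was 1 library. The authors aligned reads to rn7, counted them per gene on Ensembl annotation and normalized them; the submitters' processing notes name Partek 10.0.22.0228, STAR 2.7.8a, Bowtie2 and DESeq2, with no order. The deposited signal is a normalized count, not whole. Values below 100 were whole multiples of 1 step (within 0.05 of it) in 82.3% to 85.8% of cases, so the reads given are estimates and no count model was run. Intervals on reads cover counting error only.

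Groups were taken from the labels. They do not give litters or batches, and rats are named by the labels' identifiers. Genes averaging 1 or more were tested with limma 3.58.1 (R 4.3.3, eBayes with a trend, two-sided) on log2(normalized count + 1), on the 20 rats compared, with Benjamini-Hochberg adjustment over all genes tested. Fold changes on this scale understate those of low genes. The fit was tested on simulated data with 200 genes changed 2-fold. It recovered 198 in HIP vs. WT (17069 genes), 199 in AKO vs. WT (17048 genes) and 199 in HIP vs. AKO (17082 genes). It also called 12, 14 and 7 unchanged genes in these comparisons. The simulation gave all genes the same biological spread and held no library that stood apart. Recovery at the spread of the 7 subunits was not tested. In WT rats their SD ran from 30.5% (Gabra3) to 69.98% (Gabrd) of the mean, with 47.88% for Gabra5. These counts therefore do not show that a 2-fold change of a subunit would have been found. Relations were tested with 100000 permutations (Python 3.11.15, numpy 2.4.6, scipy 1.17.1, pandas 2.3.3). The 3 comparisons share groups.

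The subunits, gene lists and tests were chosen with earlier results of these data known. Named were the subunits, genes of the other lists with an adjusted p under 0.05, and for each subunit the 3 genes of highest rho (mean of at least 10, with a symbol). Because no list gene passed, those with an unadjusted p under 0.05 were named after their values were seen. Gabre, Gabrp and Gabrr3 were not analysed here. Some genes that these rules would name are not reported here, and the counts of subunits and of GABA genes leave them out. Alternatives were a pseudocount of 0.1 or 5, dropping the filter or raising it to 10, a joint fit of all 30 rats, quantile normalization, sample weights, robust eBayes, library number as a covariate, and leaving out each rat or the libraries with Gabra6 above 100. Promoter sequences and gene order are from RefSeq (GRCr8); no other coordinates were used, since the files use rn7.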

Additional observations from a re-analysis of the deposited data

Results flagged for a closer look

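Single libraries that stood apart from the other 9 of their group (gap to the nearest rat, relative to the range, above Dixon's 95% critical value for 10 samples) were found in 14 of 39 groups of values, 13 subunit genes in 3 groups. Chance flags about 1 in 20 groups, or 1.9 of 39, and the values of a library are not independent of each other. The 2 values of Gabra6 are those by which these libraries were chosen, and without that gene the count was 12 of 36, against 1.8.

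WT rat 10RT43 accounted for 6 of them. It had 124.4 normalized counts of Gabra2 (others 861 to 1335), 130.3 of Gabra3 (589 to 841), 150.7 of Gabra4 (627 to 1163), 5845 of Gabrd (1001 to 2299), 17979 of Gabra6 (2.96 to 14.6) and 0 of Gabrr2 (11.9 to 23.8). HIP rat 12RT23 had 1564 of Gabra6 (lowest 1.2, highest 12.6).

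HIP rat 10RT46 had 443.1 of Gabra3 (others 771 to 906), 485.8 of Gabra4 (834 to 1162) and 137.7 of Gabrr1 (1.16 to 6.28). AKO rat 6KAH98 had 356 of Gabra3 (559.6 to 786) and 398.5 of Gabra4 (661 to 916). At low counts, AKO rat 6AKO35 had 15.66 of Gabrq (1.22 to 8.77) and AKO rat 6AKO52 had 8.72 of Gabrr1 (0 to 4.49). The value of Gabra5 in 10RT43 did not meet this criterion, because the other WT rats were spread widely.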

How the results depend on the processing

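None of the 7 subunits passed an adjusted p of 0.05 under any alternative for HIP vs. WT or AKO vs. WT. For HIP vs. AKO the count was 2 with sample weights (Gabra4 at 0.35 and Gabrb2 at 0.69, log2) and 0 under all others; leaving out each rat gave 0 to 0. With sample weights, AKO vs. WT had 857 genes past the threshold and HIP vs. AKO 1143, against 17 and 29. The other lists had at most 2 genes past the threshold, in 5 of 465 counts, all 5 with sample weights.

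Of 651 log2 fold changes of subunits under an alternative, 607 kept their direction and side of the threshold, 2 passed it and 42 turned in sign. Without the libraries with Gabra6 above 100, HIP vs. WT was -0.0146 for Gabra2, -0.014 for Gabra4 and -0.0627 for Gabrb1, and AKO vs. WT was -0.171 for Gabra2, -0.184 for Gabra3 and -0.0924 for Gabrb1. Without 10RT43, 12RT23, 10RT46 and 7AKO19, chosen after the data were seen, HIP vs. WT was -0.00639 for Gabrb1 and 0.162 for Gabrb2, and AKO vs. WT was -0.214 for Gabra2, -0.211 for Gabra3 and -0.152 for Gabrb1. Sample weights gave 0.0251 for Gabrb2 in HIP vs. WT, and -0.0213 for Gabra2, -0.0871 for Gabra3 and -0.0117 for Gabrb1 in AKO vs. WT. For Gabrb1 in AKO vs. WT, quantile normalization gave -0.0322 and the library number -0.0285. The cause was not tested.

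With 1 rat left out in turn, AKO vs. WT ran from -0.171 to 0.267 for Gabra2, -0.184 to 0.16 for Gabra3, -0.329 to 0.0295 for Gabra4 and -0.0924 to 0.157 for Gabrb1. HIP vs. WT ran from -0.109 to 0.197 for Gabrb2, and HIP vs. AKO from -0.025 to 0.108 for Gabra5 and -0.0121 to 0.23 for Gabrb1. WT rat 10RT43 gave the lowest of each AKO vs. WT range. Without 10RT46 and 7AKO19, chosen after the data were seen, the 8 relations with gene lists counted above kept their direction and an adjusted p under 0.05. No paired analysis was possible because the labels give no litters or other matching of rats between groups. With 10 rats per group, changes inside the 95% intervals given could have been missed, and these intervals are not limits of detection. Single libraries widened some of them. For Gabra5 in HIP vs. WT the SE was 0.64 with all rats and 0.18 without 10RT43.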
